A study of Mus musculus with 9 samples.

Results

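The genes described here are 29 genes of cholesterol synthesis and its regulation, chosen by name from the gene rows of a raw read count table of mouse whole brain. They comprise 18 enzymes that build cholesterol from acetyl-CoA, 5 genes of the SREBP system, the LXR receptor genes with their target Mylip, and 3 genes of sterol transport, storage and turnover. The table holds 49315 gene identifiers, of which 18492 passed the filter on low counts and were tested, and all 29 of 29 genes passed it. Brains came from wild-type C57BL/6J male mice, fed ad libitum and carrying no transgene or deletion. The young group was 3 months of age by the labels (n = 5; 3 or 4 in the study methods) and the old group 33 months of age (n = 4), and the old mice carry the replicate numbers 1, 3, 4 and 5 in the labels. Each library was made from polyadenylated RNA of 1 brain, so that values average over every cell type of the organ.

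Cholesterol in the brain is made locally, because lipoproteins of the blood do not cross the blood-brain barrier, and much of it is held in myelin. Its synthesis runs from acetyl-CoA through mevalonate, squalene and lanosterol. Low sterol in the endoplasmic reticulum lets SCAP carry SREBP-2 to the Golgi for cleavage, after which SREBP-2 activates the genes of synthesis, whereas INSIG proteins hold the complex back when sterol is high. Oxysterols, among them the one that CYP46A1 makes from cholesterol in neurons, bind the LXR receptors, which activate Srebf1 and the sterol exporter genes Abca1 and Abcg1.

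Of the 18 synthesis enzymes, 8 were lower in old brain and none was higher. All 18 enzymes had a log2 fold change, old over young, below 0, with a median of -0.28 and a range from -0.52 for Dhcr7 to -0.03 for Lss. A gene was called lower or higher when its difference passed an adjusted p of 0.05 in edgeR's quasi-likelihood test, which 10 of the 18 enzymes did not. Outside the enzymes, Stard4 was also lower, and Srebf1 was the 1 gene of the 29 that was higher. In total 9 of 29 genes were lower and 1 was higher, where 4.89% of all tested genes were lower, 6.09% higher and 11.0% either. The median log2 fold change over the 29 genes was -0.16, beside -0.00 over all tested genes. None of the 29 combined that adjusted p with an absolute log2 fold change over 0.58, which 2.50% of tested genes did. When the authors' TPM values were tested with limma instead, Mvd, Cyp51 and Dhcr7 kept their calls and the other 7 calls were lost, and the median over the 29 genes relative to that of all genes was -0.17. Calls were fewer over all genes too, at 594 of 18492 on log2(TPM + 1), 287 of them lower, beside 2031 with edgeR. In bulk brain RNA, fewer cells of a type and less RNA per cell cannot be told apart.

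**Figure D1:**
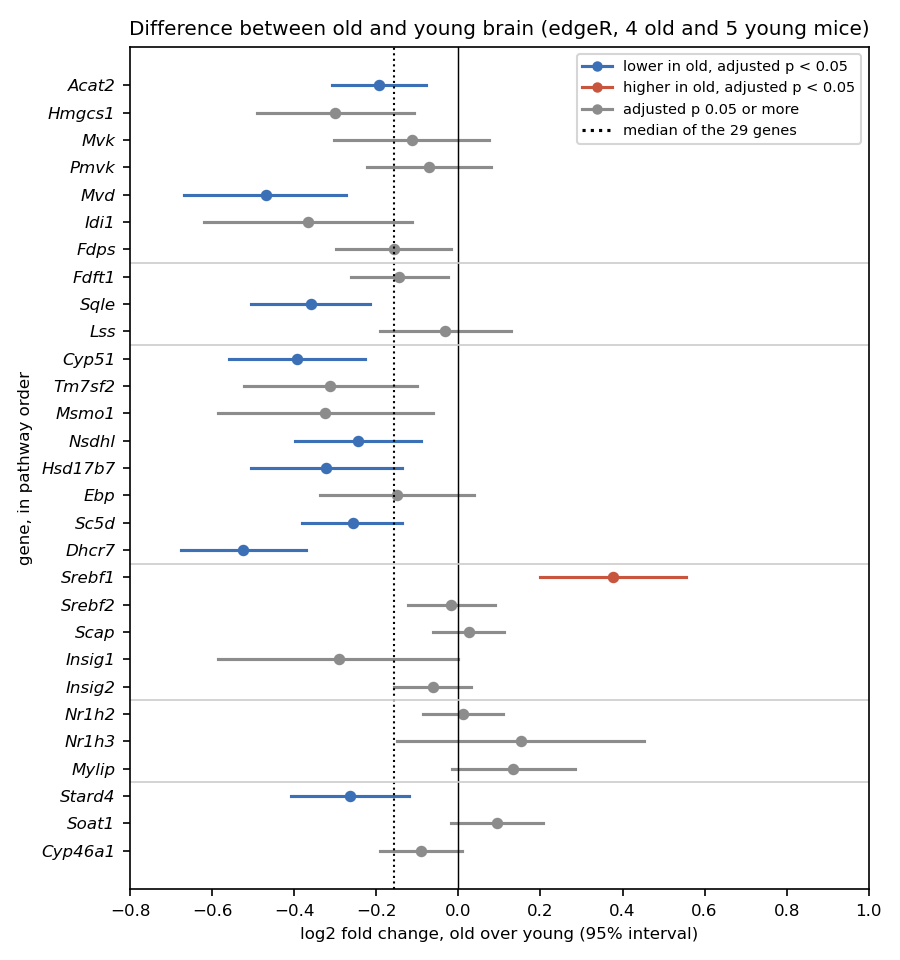
The horizontal axis gives the log2 fold change of old over young brain for each of the 29 genes, listed from top to bottom by role, with points for the edgeR estimate and lines for its 95% interval (4 old and 5 young mice). All 18 enzyme points lie left of 0, from -0.03 to -0.52, and Srebf1 lies to the right at 0.38.

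The enzyme result was uneven among old mice. The summed level of the 18 enzymes, in CPM (read counts scaled to the size of each library, with TMM factors), was 973, 963, 912, 892 and 956 in young mice 1 to 5. It was 689 in old mouse 1, 902 in old mouse 3, 747 in old mouse 4 and 777 in old mouse 5. Old mouse 3 thus lay inside the young range, and the other old mice lay below it. Old mouse 3 had the highest level among the old mice for 16 of the 18 enzymes, and old mouse 1 had the lowest for 13. Over the tested genes with a symbol (18492 tested in all), old mouse 3 was highest in 4662 and old mouse 1 lowest in 4682. The median enzyme in old mouse 3 was 0.05 below the young mean on the log2 CPM scale, whereas it was 0.40 below in old mouse 1, 0.30 in old mouse 4 and 0.28 in old mouse 5. Of the 18 enzymes, 7 were below the lowest young mouse in old mouse 3 and 14 in each of the other old mice. Without old mouse 3, 14 of the 29 genes were called lower, beside 784 of 18723 tested genes. The additions were Hmgcs1, Idi1, Fdft1, Msmo1 and Insig1. Without young mouse 1, old mouse 1 or old mouse 5, the count was 5. Over all tested genes these fits called 660 of 18171, 674 of 18599 and 622 of 18767 lower. These counts without a mouse were taken as alternatives to the fit on all 9 mice.

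**Figure D2:**
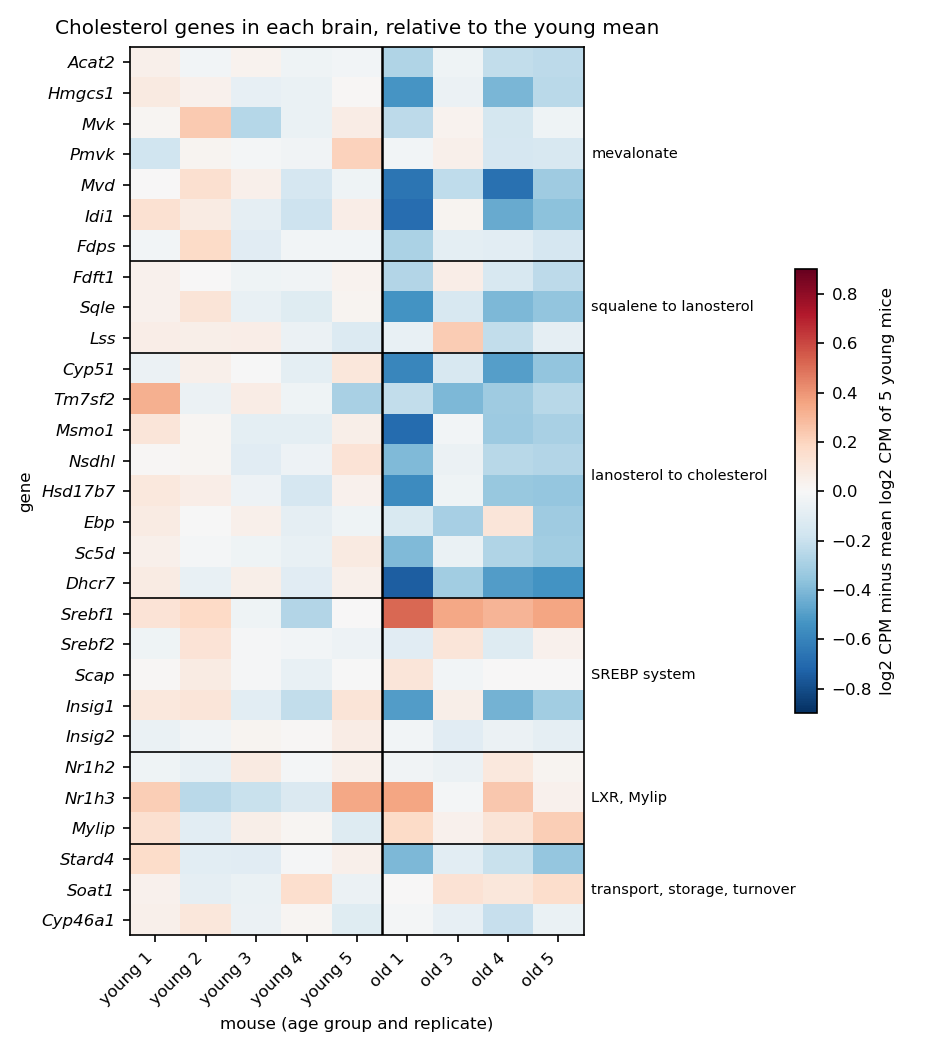
Each row is 1 of the 29 genes and each column 1 mouse, and colour gives the log2 CPM minus the mean log2 CPM of the 5 young mice (blue lower, red higher). The enzyme rows are bluest in old mouse 1 (median -0.40) and palest among the old mice in old mouse 3 (median -0.05), while the Srebf1 row is red in all 4 old mice.

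The DNA before the start of these genes is shown because SREBP proteins act there together with the general factors NF-Y and Sp1. A set of 3 short motifs were searched on both strands of the 250 bases before each RefSeq start of transcription: the core of the sterol regulatory element (TCACNCCAC), the CCAAT box bound by NF-Y (CCAAT) and the GC box bound by Sp1 (GGGCGG). No motif of these contains another. RefSeq windows were matched for 25 of the 29 genes, 15 of them enzymes. The CCAAT box was found in 21 of the 25, all but Acat2, Scap, Nr1h2 and Nr1h3, while 37.5% of 27025 genes with a window held it. The GC box was found in 21 of the 25 as well, all but Pmvk, Nr1h2, Nr1h3 and Soat1, beside 35.4% of all genes. The exact letters of the sterol regulatory element core were found in 1 of the 25, Hmgcs1, and in 1.22% of all genes. Genes with several starts have more windows and thus more chances to hold a motif, and a match is a match of letters and not a bound site. The windows of Hmgcs1, Mvd and Sc5d, of RefSeq on GRCm38.p6, are printed as examples of the mevalonate and the sterol enzymes. Capitals mark the sterol regulatory element core and the CCAAT box, the latter read as ATTGG where it lies on the other strand.
Hmgcs1, chr13:119690101-119690350, plus strand: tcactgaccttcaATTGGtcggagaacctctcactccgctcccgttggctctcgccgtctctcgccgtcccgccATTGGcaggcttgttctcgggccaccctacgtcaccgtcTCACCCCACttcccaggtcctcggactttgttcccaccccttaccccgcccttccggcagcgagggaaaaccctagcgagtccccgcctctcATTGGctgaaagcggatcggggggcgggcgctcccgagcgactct
Mvd, chr8:122443423-122443672, minus strand: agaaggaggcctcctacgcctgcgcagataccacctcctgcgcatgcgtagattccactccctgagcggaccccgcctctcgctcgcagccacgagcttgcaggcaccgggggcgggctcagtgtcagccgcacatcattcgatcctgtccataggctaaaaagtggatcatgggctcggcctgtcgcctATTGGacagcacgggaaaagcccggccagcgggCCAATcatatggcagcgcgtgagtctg
Sc5d, chr9:42264301-42264550, minus strand: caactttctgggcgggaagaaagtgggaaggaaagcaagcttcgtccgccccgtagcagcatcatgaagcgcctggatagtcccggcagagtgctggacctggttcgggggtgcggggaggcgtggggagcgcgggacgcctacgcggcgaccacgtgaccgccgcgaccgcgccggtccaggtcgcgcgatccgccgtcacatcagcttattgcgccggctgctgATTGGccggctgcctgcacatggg
In Hmgcs1 the core lay at bases -137 to -129 from the start, between CCAAT boxes at -176 to -172 and at -45 to -41. In Mvd a pair of CCAAT boxes lay at -60 to -56 and -27 to -23, and in Sc5d the only one lay at -24 to -20.

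**Figure D3:**
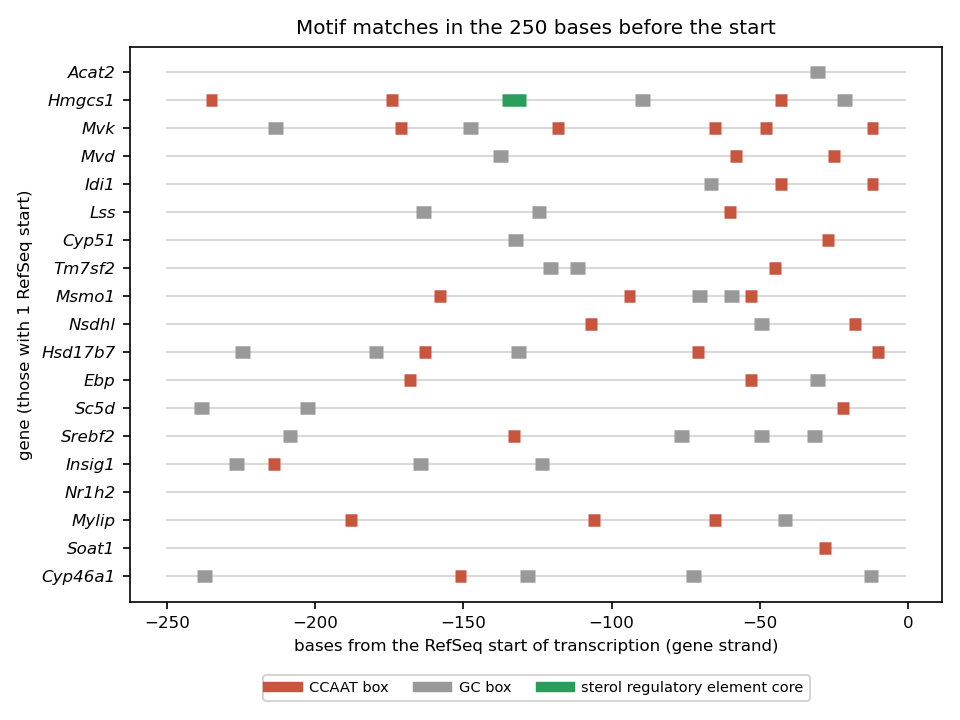
Each line is the 250 bases before the start of a gene with a single RefSeq start, the horizontal axis is the distance from that start in bases on the gene's strand, and blocks mark motif matches. The green block of the sterol regulatory element core appears in Hmgcs1 alone among the genes drawn, at -137 to -129, whereas red CCAAT boxes appear in nearly every row.

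Among the 7 mevalonate pathway enzymes, 2 were called lower in old brain (4.89% of all tested genes were) and the log2 fold changes ran from -0.47 to -0.07. Mvd (ENSMUSG00000006517, GRCm38 chr8:122433601-122443422, minus strand, 11 exon blocks) encodes the decarboxylase that makes isopentenyl diphosphate. It had the largest change of the 7. Its CPM was 20.1, 22.2, 20.8, 18 and 19.5 in young mice 1 to 5, and 12.7, 17.1, 12.5 and 16.0 in old mice 1, 3, 4 and 5. Every young mouse was above every old mouse, with old mouse 3 the nearest to the young range. Mvd had a log2 fold change of -0.47 ± 0.09 (SE; edgeR adjusted p = 0.00407), a level 27.8% lower.

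Acat2 (ENSMUSG00000023832, chr17:12942890-12960747, minus strand) encodes the cytosolic thiolase of the first step, which joins a pair of acetyl-CoA molecules. Its CPM was 35.9, 34.2, 35.5, 33.9 and 34.2 in young mice 1 to 5, and 28.7, 33.9, 29.8 and 29.5 in old mice 1, 3, 4 and 5. The groups touched without overlap, since old mouse 3 lay just under the lowest young mouse. The log2 fold change was -0.19 ± 0.06 (SE; edgeR adjusted p = 0.0296), and the call was lost without young mouse 1, young mouse 3, young mouse 5, old mouse 1, old mouse 4 or old mouse 5, each left out alone.

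Hmgcs1, the synthase of HMG-CoA and the enzyme gene with the highest level per transcript length, fell just short of the threshold. Its CPM was 263, 257, 237, 240 and 251 in young mice 1 to 5, and 172, 241, 188 and 211 in old mice 1, 3, 4 and 5. Old mouse 3 lay inside the young range and the other old mice below it. The log2 fold change was -0.30 ± 0.09 (SE; edgeR adjusted p = 0.0523). Idi1, which isomerises isopentenyl diphosphate, had a log2 fold change of -0.37 ± 0.12 (SE; edgeR adjusted p = 0.061), with old mouse 3 at 16.6 CPM against 10.1, 11.9 and 12.6 in old mice 1, 4 and 5. Genes annotated on the other strand share 12.1% of the exon bases of Hmgcs1 and 9.22% of those of Idi1.

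The remaining 3 enzymes of this stretch did not pass the test either. The kinases Mvk and Pmvk, which phosphorylate mevalonate in turn, had log2 fold changes of -0.11 and -0.07 with intervals that included 0. For Mvk the 95% interval was -0.30 to 0.08, and for Pmvk it was -0.22 to 0.08. Fdps, which makes farnesyl diphosphate for both sterols and prenylated proteins, stood at -0.16 (edgeR adjusted p = 0.138). Exons of Fdps share 26.7% of their bases with a gene annotated on the same strand, so that part of its reads could not be assigned to 1 gene.

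Of the 3 enzymes between farnesyl diphosphate and lanosterol, the middle one was called lower, where 4.89% of all tested genes were. Sqle (ENSMUSG00000022351, chr15:59315077-59331192, plus strand) encodes squalene epoxidase, which adds the oxygen needed for ring closure. Its CPM was 70.3, 74.2, 65.2, 63.5 and 69.7 in young mice 1 to 5, and 47.2, 61.8, 51.7 and 53.6 in old mice 1, 3, 4 and 5. Every young mouse was above every old mouse. Sqle had a log2 fold change of -0.36 ± 0.07 (SE; edgeR adjusted p = 0.00387), a level 22.1% lower.

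The neighbours of Sqle in the pathway did not pass the test. Fdft1, the squalene synthase, had a log2 fold change of -0.14 (95% interval -0.26 to -0.03, edgeR adjusted p = 0.109). Exons of Fdft1 share 18.3% of their bases with Ctsb on the other strand, and whether these libraries were strand-specific was not stated in the sources used here. Lss, which closes the ring system to give lanosterol, was the enzyme nearest to no change, with a log2 fold change of -0.03 (95% interval -0.19 to 0.13), and its level in old mouse 3, 54.6 CPM, was above every young mouse.

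The 8 enzymes that turn lanosterol into cholesterol held 5 of the 9 lower calls, and their median log2 fold change was -0.32. Over all tested genes 4.89% were lower. Dhcr7 (ENSMUSG00000058454, chr7:143823145-143848410, plus strand, 12 exon blocks), which reduces 7-dehydrocholesterol to cholesterol in the last step of one branch, had the lowest fold change of all 29 genes. Its CPM was 38.7, 35.1, 38.2, 34.2 and 37.9 in young mice 1 to 5, and 21.9, 29.6, 25.9 and 25.2 in old mice 1, 3, 4 and 5. No old mouse reached the lowest young mouse, old mouse 3 included. Dhcr7 had a log2 fold change of -0.52 ± 0.07 (SE; edgeR adjusted p = 0.000236), a level 30.5% lower.

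Cyp51 (ENSMUSG00000001467, chr5:4081145-4104746, minus strand) encodes the demethylase that starts this stretch. Its CPM was 72.4, 77.8, 74.9, 70.7 and 80.9 in young mice 1 to 5, and 50.0, 68.0, 53.3 and 58.8 in old mice 1, 3, 4 and 5. The groups did not overlap, and old mouse 3 was again the nearest to the young mice. Cyp51 had a log2 fold change of -0.39 ± 0.08 (SE; edgeR adjusted p = 0.00618). Exons of Cyp51 share 3.76% of their bases with Akap9 on the other strand.

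Sc5d (ENSMUSG00000032018, chr9:42251595-42264256, minus strand), the desaturase that makes 7-dehydrocholesterol, supplies the substrate of DHCR7. Its CPM was 94.3, 90.0, 89.0, 87.1 and 96.6 in young mice 1 to 5, and 69.4, 87.8, 75.5 and 73.5 in old mice 1, 3, 4 and 5. Old mouse 3 lay within the young range, and the other old mice lay below it. The log2 fold change was -0.26 ± 0.06 (SE; edgeR adjusted p = 0.00858), a level 16.4% lower.

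Hsd17b7 (ENSMUSG00000026675, chr1:169949535-169969241, minus strand) and Nsdhl (ENSMUSG00000031349, chrX:72918557-72958514, plus strand) encode the ketoreductase and the dehydrogenase that, with MSMO1, remove the methyl groups at carbon C4. The CPM of Hsd17b7 was 31.6, 31.0, 28.7, 26.8 and 30.5 in young mice 1 to 5, and 20.0, 28.9, 23.4 and 23.3 in old mice 1, 3, 4 and 5. The CPM of Nsdhl was 21, 21, 19.3, 20.1 and 22.6 in young mice 1 to 5, and 15.7, 20.0, 17.5 and 17.3 in old mice 1, 3, 4 and 5. In both genes old mouse 3 lay among the young mice and the other old mice lay below them. Hsd17b7 had a log2 fold change of -0.32 ± 0.09 (SE; edgeR adjusted p = 0.0258) and Nsdhl of -0.24 ± 0.07 (SE; edgeR adjusted p = 0.0395). Both calls were lost without young mouse 1, young mouse 2, young mouse 5, old mouse 1, old mouse 4 or old mouse 5, each left out alone.

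The other 3 enzymes of this stretch did not pass the test. Msmo1, the third enzyme of C4 demethylation, had a log2 fold change of -0.32, as large as that of Hsd17b7, but a wider spread among old mice (44.6, 70.9, 57.3 and 58.8 CPM in old mice 1, 3, 4 and 5; edgeR adjusted p = 0.115). Ebp, the sterol isomerase, stood at -0.15 (edgeR adjusted p = 0.312). Tm7sf2, a sterol C14 reductase, stood at -0.31 (edgeR adjusted p = 0.0547), and its lowest old level was in old mouse 3, at 15.5 CPM, unlike most enzymes. Exons of Tm7sf2 share 12.1% of their bases with Vps51 on the same strand.

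**Figure D4:**
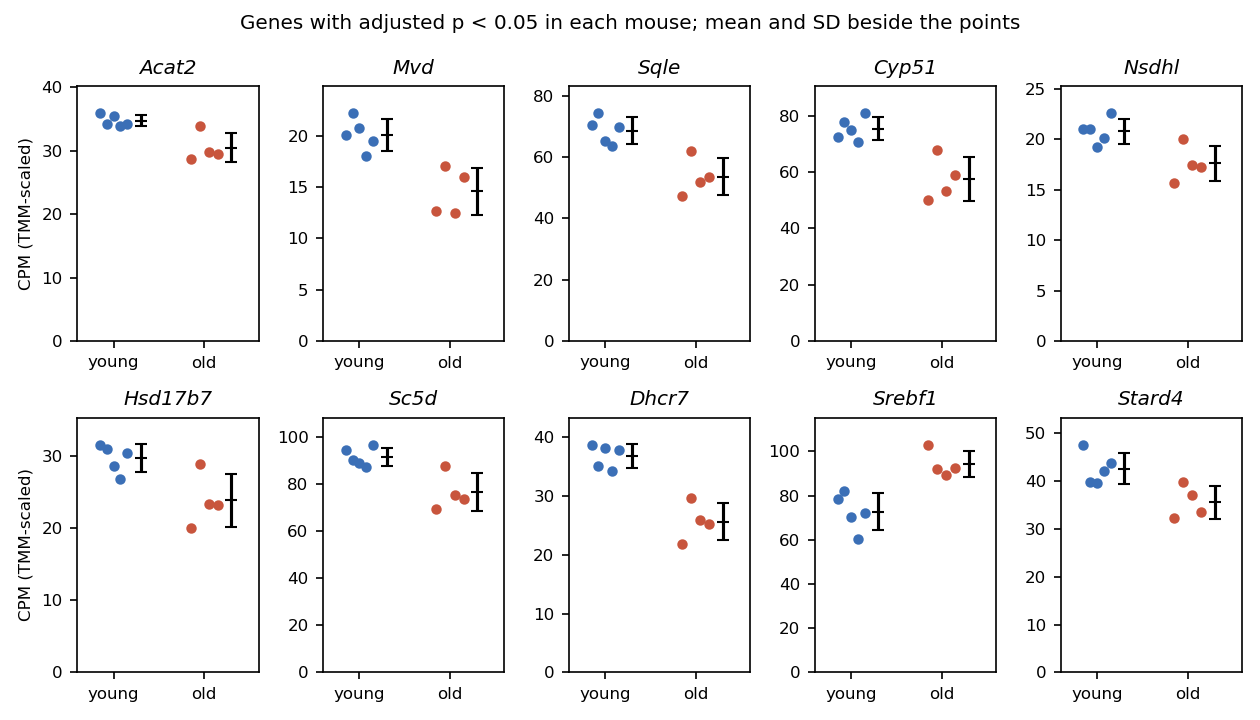
Each panel gives the CPM (TMM-scaled, linear axis from 0) of 1 gene in each mouse, blue for 5 young and red for 4 old, in the order of replicate numbers, with the mean and SD beside the points. In Mvd, Sqle, Cyp51, Dhcr7 and Acat2 all young points are above all old points, in Srebf1 all are below, and in Sc5d, Nsdhl, Hsd17b7 and Stard4 the second old point, mouse 3, reaches the young range.

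The groups did not overlap in 5 of the 29 genes with young above old, namely Acat2, Mvd, Sqle, Cyp51 and Dhcr7, and in 1 with old above young, Srebf1. Among all tested genes 6.08% had every young mouse above every old mouse and 6.50% the opposite.

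Of the 5 genes of the SREBP system, which switches the enzymes on, 1 was called higher and none was called lower. Over all tested genes 6.09% were higher and 4.89% lower. Srebf1 (ENSMUSG00000020538, chr11:60199089-60222581, minus strand) encodes SREBP-1, the family member best known for fatty acid genes. Its CPM was 78.6, 82.0, 70.4, 60.2 and 72.3 in young mice 1 to 5, and 103, 92.1, 89.3 and 92.7 in old mice 1, 3, 4 and 5. Every old mouse was above every young mouse. Srebf1 had a log2 fold change of 0.38 ± 0.08 (SE; edgeR adjusted p = 0.013), a level 29.9% higher. With TPM, which scales by transcript length and by the sum over all genes, in place of counts the call was lost, at a log2 difference of 0.21 (limma, adjusted p = 0.551). The TPM scale moved the median of all genes to -0.14, and relative to it Srebf1 stood at 0.35. The counts are per gene and do not separate the SREBP-1a and SREBP-1c transcripts. Exons of Srebf1 share 3.11% of their bases with other genes, Rai1 on the other strand and Mir6922 on the same strand.

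Srebf1 had 3 RefSeq starts, and the window of the most downstream one is shown because Srebf1 was the 1 gene of the set that was higher. Capitals mark its CCAAT box, at bases -30 to -26 and read on the other strand.
Srebf1, chr11:60210472-60210721, minus strand: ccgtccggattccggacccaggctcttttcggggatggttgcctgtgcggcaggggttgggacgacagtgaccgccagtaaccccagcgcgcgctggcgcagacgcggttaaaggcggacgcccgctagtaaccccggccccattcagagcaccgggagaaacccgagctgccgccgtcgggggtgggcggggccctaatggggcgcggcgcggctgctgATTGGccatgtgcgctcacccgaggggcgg

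Srebf2, which encodes SREBP-2, differed little between the ages. Its CPM ran from 242 to 271 in young mice and from 230 to 269 in old mice, with a log2 fold change of -0.02 (95% interval -0.12 to 0.09). The log2 ratio of Srebf1 to Srebf2 CPM within a mouse was -1.79 ± 0.15 (SD, n = 5) in young and -1.39 ± 0.16 (SD, n = 4) in old brain. The difference of 0.40 had an exact two-sided permutation p of 0.00794, the smallest that 126 splits of these mice can give. With Srebf2 nearly level, this ratio mostly repeats the Srebf1 difference and is not separate support for it.

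Of the genes that hold or release SREBP, Scap, the escort protein, had a log2 fold change of 0.03 (95% interval -0.06 to 0.11), and 13.2% of its exon bases are shared with a gene on the other strand. Insig1, itself a well-known SREBP target, ran in the same direction as the enzymes. Its CPM was 107, 108, 93.9, 86.2 and 109 in young mice 1 to 5, and 71.0, 104, 74.9 and 80.8 in old mice 1, 3, 4 and 5. Old mouse 3 was among the young mice here too, and the log2 fold change was -0.29 ± 0.13 (SE; edgeR adjusted p = 0.196). Insig2, its paralog, stood at -0.06 (95% interval -0.16 to 0.03). The log2 ratio of Insig1 to Insig2 was 1.15 ± 0.17 (SD, n = 5) in young and 0.92 ± 0.28 (SD, n = 4) in old brain, with an exact two-sided permutation p of 0.19.

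The LXR receptor genes Nr1h2 (LXR beta) and Nr1h3 (LXR alpha) had log2 fold changes of 0.01 (95% interval -0.09 to 0.11) and 0.15 (95% interval -0.15 to 0.45). Nr1h3 rested on 62 to 119 counts per library, the fewest of the 29 genes. The log2 ratio of Nr1h2 to Nr1h3 was 3.45 ± 0.27 (SD, n = 5) in young and 3.29 ± 0.17 (SD, n = 4) in old brain (exact two-sided permutation p = 0.357). Mylip, an LXR target that marks the LDL receptor for degradation, had a log2 fold change of 0.13 (edgeR adjusted p = 0.25). None of the 3 passed the test.

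Among the genes that move, store or remove cholesterol, 1 of 3 was called, where 11.0% of all tested genes were. Stard4 (ENSMUSG00000024378), a sterol carrier and an SREBP-2 target, had a CPM of 47.6, 39.9, 39.6, 42.2 and 43.9 in young mice 1 to 5, and of 32.2, 39.8, 37.0 and 33.5 in old mice 1, 3, 4 and 5. Old mouse 3 overlapped the young mice and the rest of the old mice did not. The log2 fold change was -0.26 ± 0.07 (SE; edgeR adjusted p = 0.0185), and the call was lost without young mouse 1, old mouse 1 or old mouse 5, each left out alone. Cyp46a1, the neuronal enzyme of cholesterol removal, stood at -0.09 (95% interval -0.19 to 0.01, edgeR adjusted p = 0.242). Soat1, which esterifies cholesterol for storage, stood at 0.09 (95% interval -0.02 to 0.21, edgeR adjusted p = 0.288).

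Levels were compared between genes per transcript length, as TPM, in young brain. Hmgcs1 was at 202 ± 35.7 TPM (SD, n = 5), Cyp46a1 at 175 ± 32.4, Srebf2 at 131 ± 25.3, Insig1 at 85.4 ± 16.3 and Fdft1 at 68.6 ± 12.2. Hmgcs1 and Cyp46a1 held the first and second place in every one of the 9 mice, in either order, and the next 3 genes kept their places in all 9. The enzyme transcripts themselves spanned from Hmgcs1 down to Lss at 11.4 ± 2.63 TPM. Nr1h3, at 5.15 ± 1.02 TPM, was the lowest of the 29 genes in every mouse, and Nr1h2 stood at 42.1 ± 9.09 TPM.

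Further genes of the pathway were counted from lists that complete each role, and the counts stand beside 4.89% lower and 6.09% higher over all tested genes. Of 11 other genes of synthesis and the isoprenoid branches, 1 was lower and 1 was higher. Acss2, which makes acetyl-CoA from acetate, fell by 0.28 on the log2 scale (edgeR adjusted p = 0.000862). Lbr, which carries the same sterol C14 reductase activity as TM7SF2, rose by 0.26 (edgeR adjusted p = 0.0359), with every old mouse above every young mouse.

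With 11.0% of all tested genes called in either direction, 1 of 10 genes of SREBP processing and sterol-regulated degradation was called, Erlin2, higher by 0.22 on the log2 scale (edgeR adjusted p = 0.00526). Of 9 fatty acid genes that SREBP-1 is known to activate, 2 were lower and none was higher. These were the desaturases Fads2, with a log2 fold change of -0.23 (edgeR adjusted p = 0.00984), and Fads1, with -0.16 (edgeR adjusted p = 0.0276). Of 4 LXR targets other than Srebf1 and Mylip, 2 were higher and 1 was lower.

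The LXR targets that were higher were the sterol exporter genes. Abca1 rose by 0.39 on the log2 scale (edgeR adjusted p = 5.92e-05), from 57.2 to 64.2 CPM in young mice to 73.7 to 83.6 CPM in old mice, and Abcg1 rose by 0.17 (edgeR adjusted p = 0.0161). Smpdl3a had a log2 fold change of -0.23 (edgeR adjusted p = 0.0215). Of 15 genes of sterol trafficking, esterification and oxysterols, 14 were tested and 1 was called (11.0% of all tested genes were), the lysosomal carrier gene Npc2, higher by 0.18 (edgeR adjusted p = 0.0182).

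**Figure D5:**
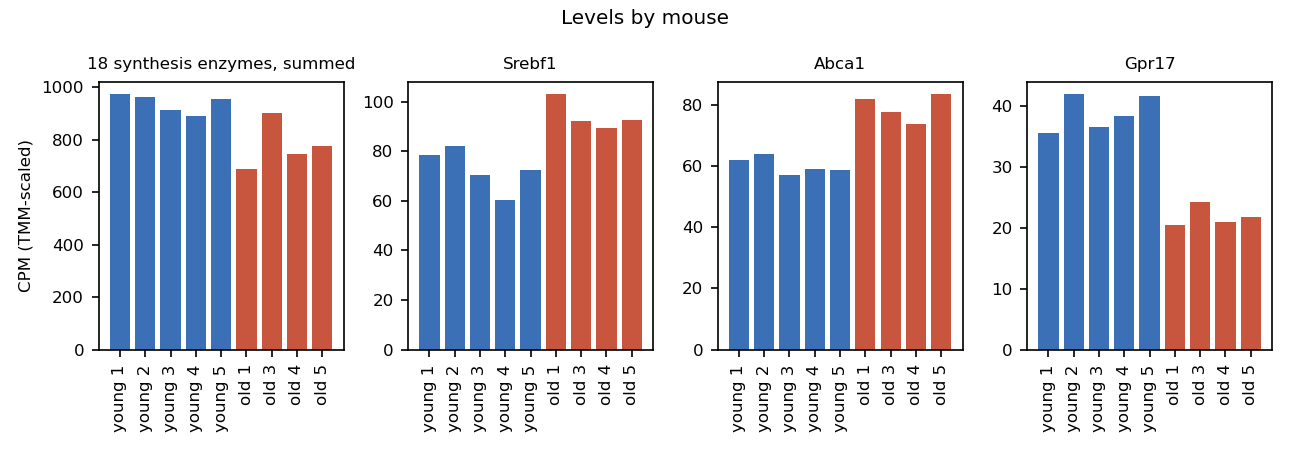
The 4 panels give, for each mouse, the CPM (TMM-scaled, linear axis from 0) of the 18 enzymes summed, of Srebf1, of Abca1 and of the oligodendrocyte precursor marker Gpr17, with young mice in blue and old mice in red. Old mouse 3 stands among the young mice for the enzymes (902 beside 892 to 973), whereas for Srebf1, Abca1 and Gpr17 the old and young bars do not overlap. Gpr17 was the only 1 of 5 precursor markers called (11.0% of all tested genes were). The other 4, not drawn, summed to 98.3 to 103 CPM in young and 100 to 106 CPM in old mice.

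Markers of several brain cell types also differed between the ages, and their part in the results above was not tested. The counts called stand beside 4.89% of all tested genes lower, 6.09% higher and 11.0% either. The summed CPM of 5 oligodendrocyte precursor markers was 136 to 145 in young and 121 to 127 in old mice, 1 of the 5 being called, Gpr17, at 35.6 to 41.9 CPM in young and 20.5 to 24.2 CPM in old mice. Without Gpr17, a sum taken after its values were seen, the other 4 precursor markers summed to 98.3 to 103 CPM in young and 100 to 106 CPM in old mice. That of 7 neuron markers was 5050 to 5350 in young and 4940 to 5090 in old mice, with 2 called lower. The 7 astrocyte markers summed to 4120 to 4510 and 4200 to 4400 CPM with none called (2 passed an unadjusted p of 0.05), and the 7 oligodendrocyte markers to 3470 to 4240 and 3700 to 4490 CPM, with Mobp called higher and Mog lower. The 6 homeostatic microglia markers summed to 186 to 269 CPM in young and 254 to 277 CPM in old mice, with 1 called higher, and the 5 endothelial markers to 203 to 215 and 234 to 273 CPM, with 3 called higher. The 4 choroid plexus markers summed to 49.7 to 64.5 and 39.3 to 61.0 CPM with none called. The 3 erythroid markers were all called higher, at 72.5 to 93.5 CPM in young mice and 216, 108, 336 and 144 CPM in old mice 1, 3, 4 and 5. Old mouse 3 was the lowest old mouse for the erythroid sum, and it lay within the old range for the precursor, endothelial and microglia sums. No defining marker was at 0.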

How the data were processed

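RNA-seq of whole brain was analysed in 5 young and 4 old mice. The authors trimmed and aligned reads to GRCm38 and deposited raw counts per gene, made with featureCounts, a table of normalized counts on the DESeq2 scale (a size-factor scaled signal, not whole counts), and TPM values per gene. Whether the libraries were strand-specific was not given in the sources used here. Each table held 1 further column, headed as an old mouse, that matched no sample, and it was not used. The study gives n = 5 for each age group. Total counts on genes were 14229259 to 21150439 per library. Each library came from 1 brain and counted as 1 replicate. Libraries of a group differed by more than sampling noise. The p-values set the age difference against the spread between mice of a group, moderated over genes.

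Counts were tested with edgeR 4.0.16 (R 4.3.3) after filterByExpr and TMM scaling, with robust dispersion estimation, on groups alone, and p-values were adjusted by the Benjamini-Hochberg method over 18492 genes. CPM values are TMM-scaled. Calls used an adjusted p of 0.05. Alternatives used DESeq2 1.42.0, limma 3.58.1 on log2(TPM + 1), log2(TPM + 0.1) and log2 of the authors' normalized counts plus 1, other scalings and filters, a replicate block, and each mouse left out. The scripts were tested on simulated data of 18492 genes. With no true change, 0 genes were called. With 200 genes changed by 0.4 on the log2 scale, 45.5% of these were called, and 8.08% of the calls were unchanged genes. With a change of 1, the shares were 82% and 6.29%.

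The genes and lists were chosen with earlier results of these data known. All 29 genes are described by role, those called with a value in every mouse. Genes of the other pathway lists are named only when called, up to 3 per list in order of p. Hmgcs1, Insig1, Idi1 and Msmo1 were given values by mouse after these were seen. A further gene of the pathway is not reported here. Symbols were matched for 48970 of 49315 identifiers. Positions and overlaps come from GENCODE M21 on GRCm38, promoter windows from RefSeq on GRCm38.p6.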

Additional observations from a re-analysis of the deposited data

Results flagged for a closer look

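Of 60 sets of 4 or 5 mice examined (each of the 29 genes and the sum of the 18 enzymes, in each age group), 2 held a mouse far from the rest, where chance gives about 3. Both were young mouse 2. For Fdps, its log2 CPM stood above the other young mice by a gap of 0.717 of the group's range (27.7 CPM beside 22.8 to 24.1). For Srebf2 the gap was 0.812 of the range (271 CPM beside 242 to 247).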

How the results depend on the processing

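Mvd, Cyp51 and Dhcr7 were called lower in all 19 refits, Sqle and Sc5d in 17, Stard4 in 13, Acat2 in 11 and Nsdhl and Hsd17b7 in 10. Srebf1 was called higher in 17. All 18 enzymes stayed below 0 in 18 of the 19, the exception being Lss at 0.027 without old mouse 4. On log2(TPM + 1), 594 of 18492 genes were called (307 higher, 287 lower), with 0 members higher and 3 lower and a median of -0.308. On log2(TPM + 0.1), 600 of 18492 genes were called (304 higher, 296 lower), with 0 members higher and 3 lower and a median of -0.328. TPM scaling moved the median of all genes to -0.142 and -0.162, so that relative to it the members stood at -0.167 and -0.166. An absolute log2 fold change over 0.58 left 463 genes and 0 members in either direction, and an adjusted p of 0.01 left 873 genes, 5 members lower and 0 higher; these are stricter by construction. Leaving out each mouse in turn gave 1516 to 2034 genes of 18132 to 18767 tested, with 622 to 852 lower and 879 to 1182 higher. Of the members, 5 to 14 were lower and 1 higher, with a median of -0.148 to -0.216. DESeq2 called 2107 of 17359 tested genes, 996 of them lower, with 13 members lower. No filter gave 2802 of 35028 tested genes, 1297 of them lower, with 13 members lower. Fitting edgeR without robust estimation was an alternative chosen after seeing the data. That fit called 2039 of 18492 genes, 893 of them lower. It called 11 members lower, adding Hmgcs1 (edgeR adjusted p = 0.0197) and Msmo1 (edgeR adjusted p = 0.0423).

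Replicate numbers are shared by young and old mice. With the replicate number as a block, edgeR called 1828 of 18492 genes (1039 higher, 789 lower), with 7 members lower and 1 higher (median -0.154). Nsdhl, Hsd17b7 and Stard4 were lost and Tm7sf2 was gained. Same-numbered mice correlated at 0.17, -0.118, 0.088 and -0.024 over genes for numbers 1, 3, 4 and 5. Numbers 1 and 4 correlated best with their own number, and numbers 3 and 5 did not. With correlations this weak and mixed, these values cannot decide whether same-numbered mice were paired.

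Small values changed sign, none of them called. Leaving out each mouse in turn gave -0.124 to 0.027 for Lss, -0.062 to 0.018 for Srebf2 (above 0 also at 0.015 and 0.016), -0.002 to 0.048 for Scap and -0.019 to 0.029 for Nr1h2 (below 0 also at -0.003). With the block, Srebf2 became 0.012 and Nr1h2 -0.006. On log2(TPM + 1) and log2(TPM + 0.1) Scap became -0.136 and -0.140, Nr1h2 -0.153 and -0.156, Nr1h3 -0.006 and -0.006, Mylip -0.029 and -0.030, and Soat1 -0.062 and -0.066. The median of all genes on these scales was -0.142 and -0.162. Relative to the all-gene median, Scap stood at 0.005 and 0.021, Nr1h2 at -0.012 and 0.005, Nr1h3 at 0.136 and 0.156, Mylip at 0.112 and 0.132, and Soat1 at 0.080 and 0.096. The cause of the sign changes was not tested. The lowest depth was that of Nr1h3, at 62 to 119 counts per library.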
